A study of Mus musculus with 12 samples.

Results

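Nestin (Nes) and 8 further genes used as markers of neural stem cells, namely Vim, Fabp7, Slc1a3, Prom1, Msi1, Msi2, Hopx and Cd9, were followed across 12 RNA-Seq libraries of mouse neural progenitor cells (mNPCs). The 9 genes were listed by name as markers of progenitor identity, with earlier results of these data known, and all 9 were found among the 18911 genes of the count table by matching Ensembl identifiers to GRCm38 symbols. The cells came from the hippocampus of newborn C57BL/6J pups and were expanded with FGF-2 and EGF. There were 4 genotypes with 3 libraries each. Kmt2a+/+ cells were wild type, and Kmt2a+/LSL cells carried a loxP-stop-loxP (LSL) cassette in the first intron of 1 Kmt2a allele, which ends the transcript of that allele early. Nes-Cre+/- Kmt2a+/LSL cells carried the same cassette with a nestin-driven Cre recombinase that can excise it, and Nes-Cre+/- Kmt2a+/+ cells carried Cre alone. The Cre is a transgene under nestin regulatory sequence, so it acts in cells that use that sequence, and the Nes gene itself is not its site of insertion. The study calls the replicates biological, and the labels do not say whether they were cultures of separate animals, so p-values measure the spread between these libraries.

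Neural stem cells of the hippocampus descend from radial glia, the elongated cells that line the embryonic ventricle and give rise to neurons and then to glia. They keep a cytoskeleton of the intermediate filament proteins nestin and vimentin (Vim), bind fatty acids with the brain lipid-binding protein Fabp7, and clear glutamate with the transporter GLAST (Slc1a3). Prominin 1 (Prom1) and the tetraspanin Cd9 are surface proteins, Musashi 1 and 2 (Msi1, Msi2) are RNA-binding proteins that repress translation in stem cells, and Hopx is a small homeodomain protein of quiescent stem cells that does not bind DNA itself.

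Promoter windows from RefSeq (GRCm38.p6), 250 bases before to 50 after a start, were matched for 8 of the 9 genes, with 12 windows in all. Those of Nes, the gene that names the Cre line, and of Fabp7 and Slc1a3, whose levels were correlated across libraries (described further on), are shown. The Nes window is that of the endogenous mouse gene and is not the sequence of the Cre transgene. Capitals mark any match on either strand to the TATA box (TATAAA), the CCAAT box (CCAAT), the GC box (GGGCGG) or the core of the CSL site of Notch signalling (TGGGAA); no matches overlapped.
Nes, chr3:87970843-87971142, + strand: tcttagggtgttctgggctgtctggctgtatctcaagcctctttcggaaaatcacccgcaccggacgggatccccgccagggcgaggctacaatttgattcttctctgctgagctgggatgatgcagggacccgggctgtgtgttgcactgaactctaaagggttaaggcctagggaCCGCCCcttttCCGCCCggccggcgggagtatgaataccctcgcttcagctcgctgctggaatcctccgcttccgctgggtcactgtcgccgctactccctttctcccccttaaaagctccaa
Fabp7, chr10:57784673-57784972, + strand: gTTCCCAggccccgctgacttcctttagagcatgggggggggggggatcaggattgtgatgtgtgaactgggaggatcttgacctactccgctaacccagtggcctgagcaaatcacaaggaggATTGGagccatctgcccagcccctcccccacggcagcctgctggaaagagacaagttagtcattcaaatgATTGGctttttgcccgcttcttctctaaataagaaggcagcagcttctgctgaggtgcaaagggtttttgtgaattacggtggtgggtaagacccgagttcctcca
Slc1a3, chr15:8710758-8711057, - strand: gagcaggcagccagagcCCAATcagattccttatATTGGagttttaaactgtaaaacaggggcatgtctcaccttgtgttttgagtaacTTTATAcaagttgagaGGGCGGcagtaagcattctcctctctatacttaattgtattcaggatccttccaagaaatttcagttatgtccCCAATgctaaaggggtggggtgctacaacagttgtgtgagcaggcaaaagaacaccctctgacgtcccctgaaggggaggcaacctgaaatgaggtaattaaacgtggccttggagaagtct
The Nes window held 2 GC boxes and neither a TATA box nor a CCAAT box. Among all 32851 promoter windows of the table, 35.7% held a GC box. The Fabp7 window held 2 CCAAT boxes and 1 CSL core, and the Slc1a3 window held 3 CCAAT boxes, 1 GC box and 1 TATA box. A CCAAT box was found in 37.4% of all windows, a CSL core in 25.6% and a TATA box in 13.6%. The SOX core (ACAAAG), also searched, was in 18.7% of all windows and in none of the 12 windows of these genes. A match is a run of letters, not a bound site.

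The 12 libraries held 18280008 to 28596919 counts each. Kmt2a itself, the check of the labels, stood at 281 to 300.3 CPM (the count scaled to a common library size with TMM factors) in Kmt2a+/+ and at 166 to 167 CPM in Kmt2a+/LSL, with no overlap. It was at 283 to 310.0 CPM in Nes-Cre+/- Kmt2a+/+ and at 259 to 284 CPM in Nes-Cre+/- Kmt2a+/LSL. One library stood apart. In Kmt2a+/+ replicate 1, the shallowest library, 39.8% of the 17076 genes tested lay more than 2-fold from the median of the other 11 libraries, against 4.9% to 10.5% in each of the others. Fold changes of the members that moved with this library are therefore given with and without it, as are the medians of the gene lists.

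All 9 genes were expressed in every library, with 94 counts (Prom1) as the lowest single value. Per kilobase of the longest coding transcript, Fabp7 was the most abundant at a mean of 4422 CPM per kb. Vim followed with 965 and Slc1a3 with 534, then Cd9 with 197, Nes with 85.0, Msi2 with 60.9, Msi1 with 25.3, Hopx with 15.4 and Prom1 with 1.39 CPM per kb. Gene-level counts of Hopx and Cd9 are less certain, because 26.2% and 20.1% of the 31-base words of their transcripts also occur in transcripts of other genes, whereas Nes and Fabp7 share none. The cells carried further progenitor genes at the same time, among them the EGF receptor Egfr (median 1048 CPM), the phosphatase Ptprz1 (1786 CPM) and the transcription factors Sox2 (342 CPM) and Sox9 (209 CPM).

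Of cells that a hippocampal dissection could bring along, the microglial markers were at or near 0. The endothelial markers were low, with Kdr and Tek reaching 2.32 and 2.14 CPM, and Cdh5 at a median of 0 CPM. Of the ependymal and pericyte lists, Foxj1 and Rgs5 stood above the rest. The microglial and macrophage list summed to 0.122 to 2.08 CPM and the endothelial list to 2.65 to 5.35 CPM. The fibroblast, pericyte and meningeal list summed to 1.13 to 14.1 CPM and the ependymal list to 4.10 to 34.7 CPM. Foxj1, a transcription factor of ciliated cells, was at a median of 19.6 CPM (up to 33.8) and the pericyte marker Rgs5 at 5.35 CPM (up to 9.71), medians that lie within the CPM ranges of Hopx and Prom1. The other markers of these lists were lower. Ccdc153, Ttr and Kl did not exceed 0.584, 0.262 and 0.375 CPM, and the pericyte marker Pdgfrb did not exceed 0.299 CPM. Col1a2, Dcn and Lum did not exceed 0.795, 0.199 and 0.358 CPM, while Col1a1 and Col3a1 reached 1.23 and 2.27 CPM. C1qa, C1qb, Cldn5 and Tmem212 were not in the table. Of the neural lineages, the neuron list summed to 1016 to 1917 CPM, nearly all of it Map2, which encodes a microtubule-associated protein (median 1323 CPM), while Stmn2 and Neurod1 did not exceed 0.300 and 0.502 CPM. Other neuronal genes were detected at low levels, with Tubb3 at a median of 20.9 CPM (up to 28.2), Dcx at 12.1 CPM (up to 19.7) and Snap25 at 5.16 CPM (up to 16.2). Oligodendrocyte-lineage genes were high through the transcription factors Olig1 (median 3101 CPM) and Olig2 (865 CPM), with the myelin gene Mbp at 1.58 and Mog at 0 CPM. Astrocyte markers summed to 1388 to 4629 CPM, with Aldh1l1 at a median of 830.1 CPM and Gfap at 92.9 CPM. Some of these genes are shared by progenitors and glia, and in bulk RNA fewer cells of a type and less RNA per cell cannot be told apart.

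**Figure D1:**
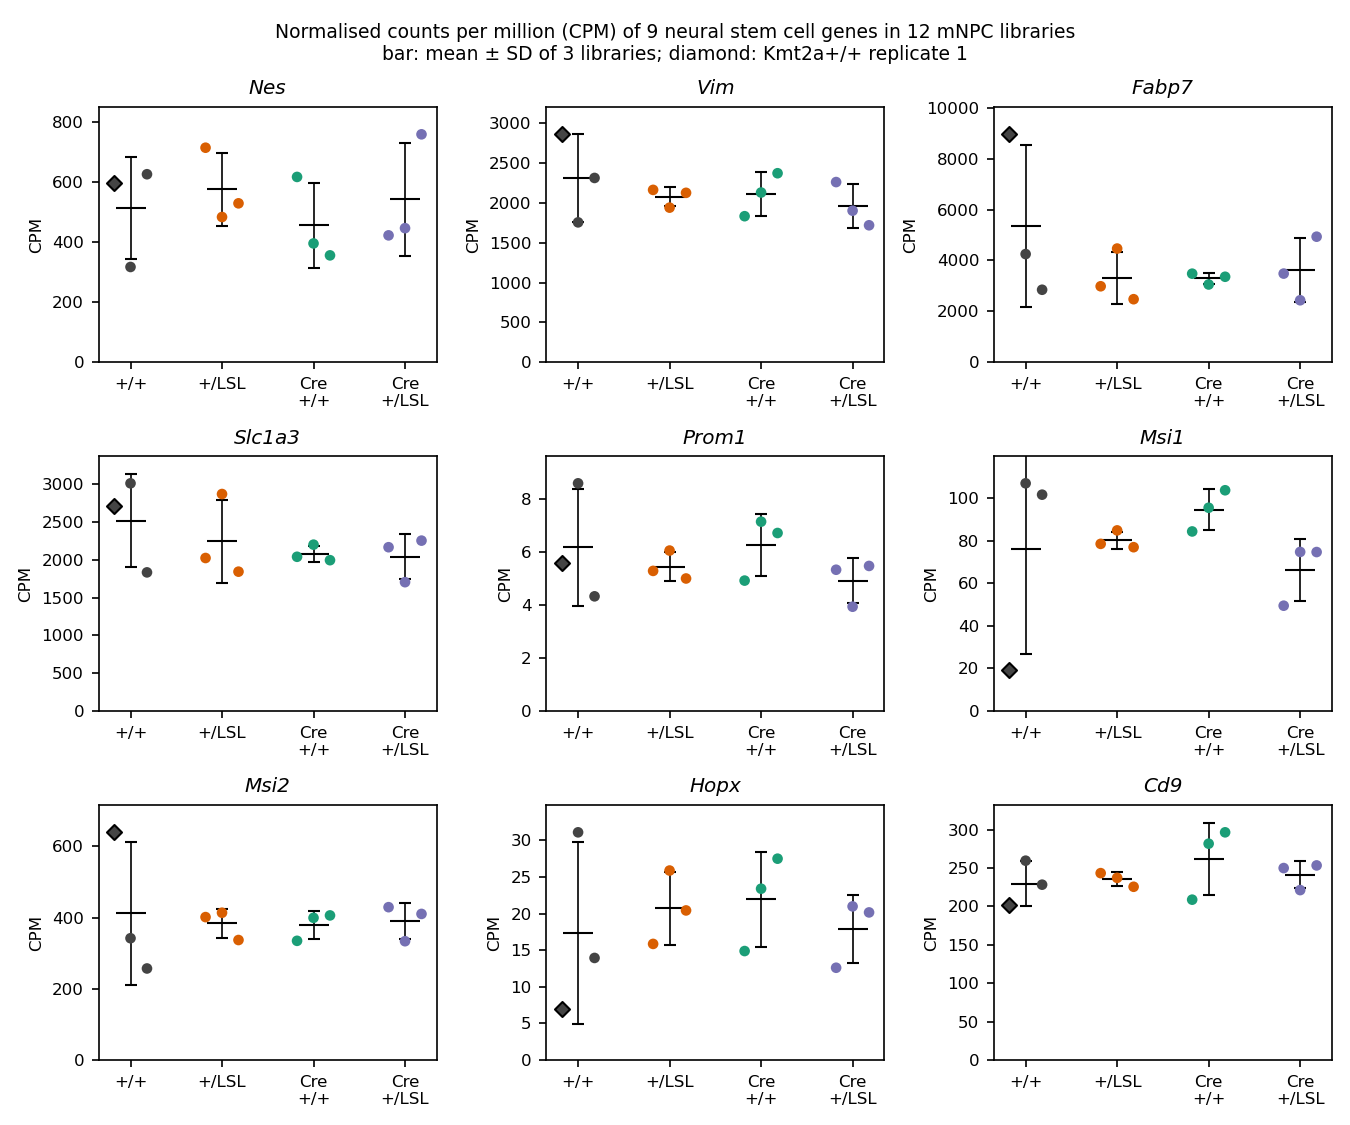
Normalised expression of the 9 genes (CPM, linear axes from 0), by genotype, in each of the 12 libraries; points are libraries, horizontal bars with whiskers are the mean ± SD of 3 libraries, and diamonds mark Kmt2a+/+ replicate 1. Nes spans 316 to 758 CPM with every genotype overlapping the others, and the diamond is the highest point for Fabp7, Vim and Msi2 and the lowest for Msi1, Hopx and Cd9.

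Nes, the gene that names the Cre line, was at 595, 316 and 625.01 CPM in Kmt2a+/+ replicates 1 to 3, at 713, 483 and 528 CPM in Kmt2a+/LSL, at 616, 395 and 355 CPM in Nes-Cre+/- Kmt2a+/+ and at 422, 446 and 758 CPM in Nes-Cre+/- Kmt2a+/LSL. The 4 genotypes overlapped throughout. The lowest library was a Kmt2a+/+ and the highest a Nes-Cre+/- Kmt2a+/LSL library, 2.40-fold apart. Between carriers and non-carriers of nestin-Cre, averaged over the Kmt2a genotypes, the log2 fold change of Nes was -0.13 ± 0.23 (SE, 6 against 6 libraries), with a 95% interval of -0.63 to 0.38. Its adjusted p in edgeR's quasi-likelihood test was 1.00, and its two-sided exact permutation p, with Cre labels exchanged within each Kmt2a genotype, was 0.58. Without Kmt2a+/+ replicate 1 the fold change was -0.077.

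Against Kmt2a+/+, Nes in Kmt2a+/LSL differed by 0.17 ± 0.33 (log2, SE), with a 95% interval of -0.55 to 0.88. Cre in the Kmt2a+/LSL background gave -0.09 ± 0.33, and Cre in the Kmt2a+/+ background gave -0.17 ± 0.33. None passed the test, and leaving out Kmt2a+/+ replicate 1 left the first at 0.29 and the last at -0.053. Single libraries turned the direction of the first value and of the effect of Cre in the Kmt2a+/LSL background. Without Kmt2a+/+ replicate 2 the first was -0.086, and without Kmt2a+/LSL replicate 1 it was -0.019 and the latter was 0.10. The latter was also positive without Nes-Cre+/- Kmt2a+/LSL replicate 1 (0.066) or replicate 2 (0.037).

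Among the other members of the cytoskeleton and surface groups, spreads were narrower. Vim was at 2312 ± 554 CPM (mean ± SD, n = 3) in Kmt2a+/+, at 2078 ± 120 in Kmt2a+/LSL, at 2113 ± 271 in Nes-Cre+/- Kmt2a+/+ and at 1962 ± 276 in Nes-Cre+/- Kmt2a+/LSL. Its coefficient of variation over the 12 libraries was 15.2%, against 27.2% for Nes. Cd9 varied least of the 9 genes, by 11.6%, and lay at 230 ± 29.0, 235 ± 9.01, 262 ± 46.9 and 241 ± 17.6 CPM in the same order of genotypes. Prom1, the scarcest, was at 6.17 ± 2.19, 5.44 ± 0.545, 6.26 ± 1.18 and 4.91 ± 0.850 CPM. None of the 3 passed the test in any comparison.

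Fabp7, the most abundant member, was at 8960, 4248 and 2843 CPM in Kmt2a+/+, at 2980, 4465 and 2472 CPM in Kmt2a+/LSL, at 3476, 3051 and 3355 CPM in Nes-Cre+/- Kmt2a+/+ and at 3480, 2430.1 and 4932 CPM in Nes-Cre+/- Kmt2a+/LSL. Replicate 1 of Kmt2a+/+ was the highest, at 2.67 times the median of the other 11 libraries. Its fold change between Kmt2a+/LSL and Kmt2a+/+ was -0.69 ± 0.40 on the log2 scale (edgeR, adjusted p = 1), the lowest p of any member there, and the value without that library was -0.097 (adjusted p = 0.930, within a range of 0.683 to 1 over all alternatives). The Nes-Cre+/- Kmt2a+/+ libraries gave a like value against the same controls, -0.70 ± 0.40, and -0.11 without replicate 1. Without Kmt2a+/+ replicate 3, the lowest of the 3 controls, the values were -0.998 (adjusted p = 0.683) and -1.003 (adjusted p = 0.655), both with an unadjusted p under 0.05 in edgeR. Both comparisons share the Kmt2a+/+ libraries. Slc1a3, the glutamate transporter, was at 2712, 3013 and 1835 CPM in Kmt2a+/+, at 2025, 2872 and 1844 CPM in Kmt2a+/LSL, at 2041, 2202 and 1996 CPM in Nes-Cre+/- Kmt2a+/+ and at 2168, 1705 and 2255 CPM in Nes-Cre+/- Kmt2a+/LSL. The genotypes overlapped, and the carriers lay lower by 0.21 ± 0.16 on the log2 scale (95% interval -0.56 to 0.15), which did not pass the test and was -0.19 without Kmt2a+/+ replicate 1.

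The values of the 2 Musashi genes and Hopx also depended on which wild-type libraries were counted. Msi1 was at 19.2, 107 and 102 CPM in Kmt2a+/+, at 78.5, 84.8 and 76.9 CPM in Kmt2a+/LSL, at 84.3, 95.4 and 104 CPM in Nes-Cre+/- Kmt2a+/+ and at 49.4, 74.7 and 74.6 CPM in Nes-Cre+/- Kmt2a+/LSL. The 3 Nes-Cre+/- Kmt2a+/LSL libraries lay below all 3 Kmt2a+/LSL libraries and all 3 Nes-Cre+/- Kmt2a+/+ libraries, by log2 fold changes of -0.27 ± 0.46 and -0.51 ± 0.46. Both gave a two-sided exact permutation p of 0.1, the smallest that 3 against 3 libraries allow, and an adjusted p of 1 in edgeR. Msi1 was the single member whose libraries did not overlap in either comparison, beside 7.1% and 6.68% of all genes.

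For Msi1 in Kmt2a+/LSL against Kmt2a+/+, the log2 fold change was 0.076 ± 0.46 with all libraries and reversed to -0.38 without Kmt2a+/+ replicate 1 (unadjusted p under 0.05, adjusted p = 0.551, edgeR, range of adjusted p over all alternatives 0.551 to 1). Without that library the fold change between the genotypes with Cre was -0.52 (unadjusted p under 0.05, adjusted p = 1 in edgeR, over alternatives 0.988 to 1). In those 11 libraries Msi1 was lower in each genotype with the LSL allele than in the genotype without it and of the same Cre status, and neither difference passed correction over all genes. The library left out held the lowest Msi1 value, 19.2 CPM, and was singled out after its values were seen. With that library included, the difference without Cre was positive. The share of all genes at the unadjusted threshold in those 11 libraries is not reported here.

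Msi2 behaved in the opposite way in the library that stood apart, at 639, 342 and 257 CPM in Kmt2a+/+, with 337 to 413 CPM in Kmt2a+/LSL, 335 to 406 CPM in Nes-Cre+/- Kmt2a+/+ and 333 to 429 CPM in Nes-Cre+/- Kmt2a+/LSL. Outside replicate 1 its range over 11 libraries was 1.67-fold. Hopx was at 6.90, 31.1 and 13.9 CPM in Kmt2a+/+, at 15.9, 25.9 and 20.4 CPM in Kmt2a+/LSL, at 14.9, 23.4 and 27.5 CPM in Nes-Cre+/- Kmt2a+/+ and at 12.6, 21.0 and 20.2 CPM in Nes-Cre+/- Kmt2a+/LSL. Kmt2a+/+ held both its lowest and its highest library. The fold change of Hopx against Kmt2a+/+ was 0.26 ± 0.46 in Kmt2a+/LSL, -0.11 without Kmt2a+/+ replicate 1 and 0.99 without replicate 2 (unadjusted p under 0.05, adjusted p = 0.904 in edgeR, 0.891 to 1 over all alternatives). In Nes-Cre+/- Kmt2a+/+ it was 0.34 ± 0.46, and 1.07 without replicate 2 (unadjusted p under 0.05, adjusted p = 0.843 in edgeR). These comparisons share the Kmt2a+/+ libraries.

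Without Kmt2a+/+ replicate 1, several fold changes of the members crossed 0 while none passed the test. In Kmt2a+/LSL against Kmt2a+/+, Msi2 went from -0.10 to 0.36, Vim from -0.15 to 0.029 and Cd9 from 0.034 to -0.050, whereas Slc1a3 (-0.17 and -0.11) and Prom1 (-0.18 and -0.24) kept their direction. In Nes-Cre+/- Kmt2a+/+ against Kmt2a+/+, Msi1 went from 0.31 to -0.15, Msi2 from -0.12 to 0.34 and Hopx from 0.34 to -0.041. In carriers against non-carriers, Fabp7 went from -0.29 to 0.0020, Msi1 from 0.021 to -0.22 and Msi2 from -0.046 to 0.18.

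**Figure D2:**
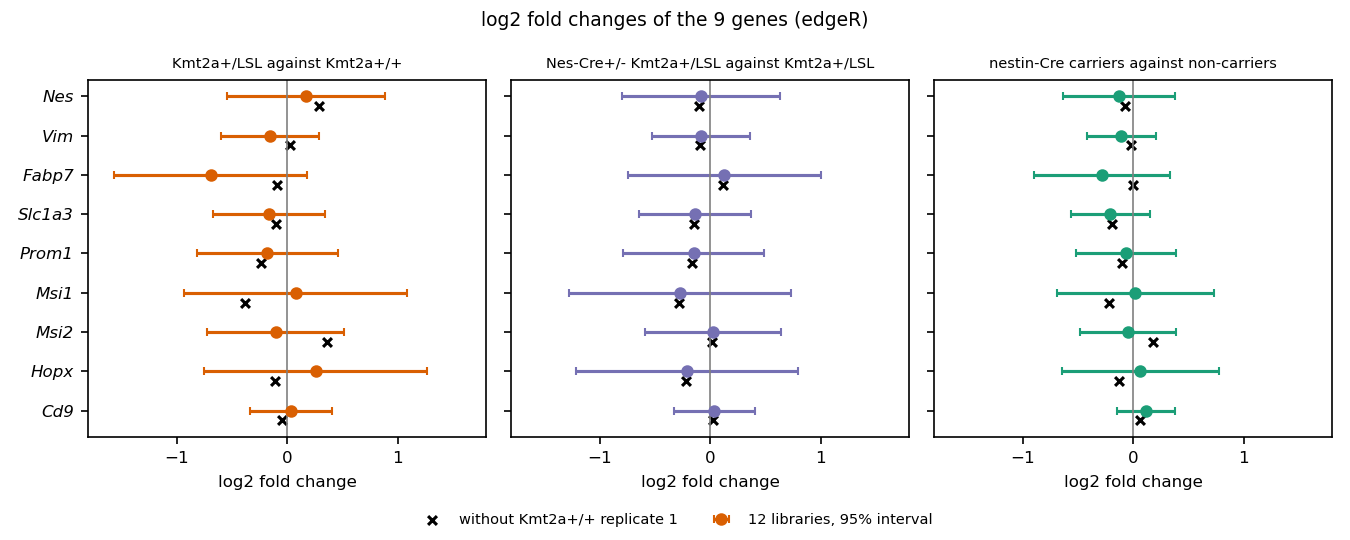
log2 fold changes (x axis) of the 9 genes in 3 comparisons; circles with whiskers are edgeR estimates from 12 libraries with 95% intervals, and crosses are the estimates without Kmt2a+/+ replicate 1. Every interval includes 0, and the crosses of Fabp7 (-0.097), Msi1 (-0.38) and Msi2 (0.36) in the left panel lie away from the circles.

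Counted over the 9 genes, 0 passed an adjusted p of 0.05 in edgeR in any of the 6 comparisons, where 0% of the 17076 genes passed, and 0 had an unadjusted p under 0.05. The background at that unadjusted threshold was 1.79% of all genes for Kmt2a+/LSL against Kmt2a+/+, 1.61% for Nes-Cre+/- Kmt2a+/LSL against Kmt2a+/LSL, 1.4% for Nes-Cre+/- Kmt2a+/+ against Kmt2a+/+ and 1.11% for Nes-Cre+/- Kmt2a+/LSL against Nes-Cre+/- Kmt2a+/+. It was 1.66% for carriers against non-carriers and 1.73% for the difference of the LSL effects with and without nestin-Cre. DESeq2 and limma-voom also called 0 members. Of all genes, DESeq2's Wald test called 3 to 10 per comparison and limma-voom 0 to 2. The study followed DESeq2 with a re-estimation of p-values by fdrtool, which was not repeated here, so these counts are not those of its procedure. No member's libraries were separate in Kmt2a+/LSL against Kmt2a+/+ (4.05% of all genes), in Nes-Cre+/- Kmt2a+/+ against Kmt2a+/+ (4.35%) or in carriers against non-carriers (0.0996%). The median log2 fold change of the members was -0.10 in Kmt2a+/LSL against Kmt2a+/+, beside 0.0011 over all genes tested, and -0.065 in carriers against non-carriers, beside 0.0022.

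With all 12 libraries, the difference of LSL effects farthest from 0 was that of Fabp7, 0.83 ± 0.56 on the log2 scale (95% interval -0.41 to 2.06, edgeR adjusted p = 1.00), which was 0.22 without Kmt2a+/+ replicate 1 and 1.13 without replicate 3 (unadjusted p under 0.05, adjusted p = 0.792, edgeR). The order depended on the libraries. Without Kmt2a+/+ replicate 1 the value farthest from 0 was that of Msi2, -0.32, and without replicate 2 that of Hopx was -1.28 (unadjusted p under 0.05, adjusted p = 0.929, edgeR). For Nes the same term was 0.084 ± 0.46, with an interval of -0.93 to 1.10, and its direction reversed to -0.048 without replicate 1.

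**Figure D3:**
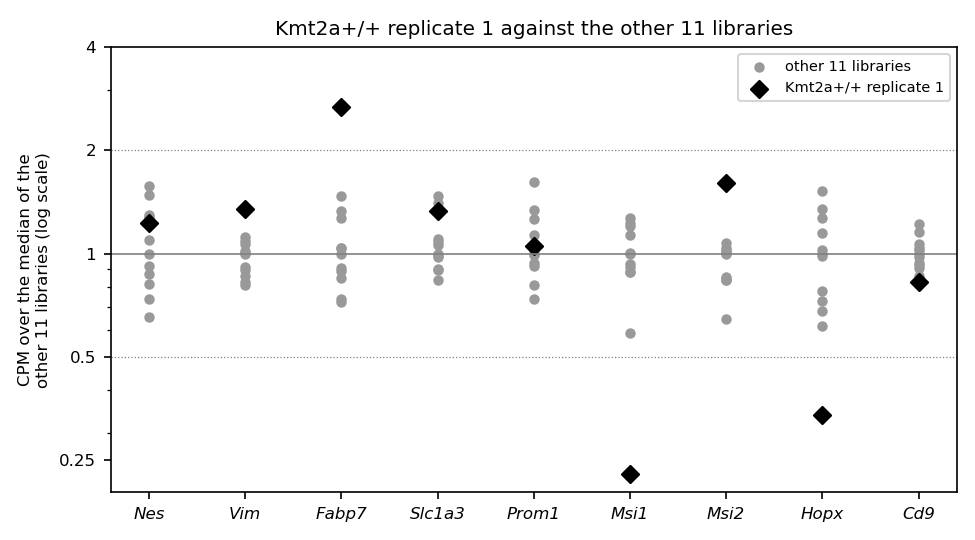
CPM of each gene divided by its median over the 11 libraries other than Kmt2a+/+ replicate 1 (log axis); grey points are those 11 libraries, black diamonds are replicate 1, and dotted lines mark 2-fold. Fabp7 (2.67), Msi1 (0.228) and Hopx (0.338) lie beyond 2-fold in replicate 1, as do 39.8% of all genes tested, while Nes (1.23) and Prom1 (1.05) lie within the range of the others.

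In Kmt2a+/+ replicate 1, 3 of the 9 genes lay beyond 2-fold of the other libraries, Fabp7 above and Msi1 and Hopx below, beside 39.8% of all genes, so the count is near the background. Nes was 1.23 times the median. Other progenitor genes moved in the same library, in both directions. The proliferation marker Mki67 was at 1429 CPM (206 to 707 in the other 11 libraries) and Cd24a at 391.5 CPM (141 to 194). The Notch target Hes5 was at 2.14 CPM, against 45.8 to 160 in the others. Glial lists were low there, with the oligodendrocyte lineage at 1199 CPM (3446 to 5559.8 in the others) and the astrocyte markers at 1388 CPM (1950.3 to 4629 in the others). The neuron list summed to 1917 CPM (1016 to 1715 in the others), of which Map2 made up 1874 CPM, and its members went in both directions. Snap25 (16.2 CPM, 3.82 to 7.92 in the others), Syt1 (2.97 CPM, 0.875 to 1.94) and Dcx (19.7 CPM, 6.28 to 17.5) were highest there, whereas Tubb3 (3.03 CPM, 11.5 to 28.2), Rbfox3 (0.476 CPM, 0.750 to 2.50) and Neurod1 (0.0595 CPM, 0.0813 to 0.502) were lowest. The part of these differences in the values of the 9 genes was not tested.

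Across the 12 libraries pooled, Fabp7 and Slc1a3 were correlated, although their order did not match within every genotype. Among the Nes-Cre+/- Kmt2a+/+ libraries the lowest Fabp7 value stood with the highest Slc1a3 value. In Kmt2a+/+ the highest Fabp7 value was in replicate 1 and the highest Slc1a3 value in replicate 2. Over the 12 libraries, Pearson's r of the log2 CPM of Fabp7 and Slc1a3 was 0.75 (permutation p = 0.00307, adjusted over the 36 pairs of members 0.0553). Spearman's rho was 0.87 (permutation p = 0.00042, adjusted 0.0151). Without the 2 libraries farthest from the median of Fabp7, r was 0.91, without Kmt2a+/+ replicate 1 it was 0.81, and on deviations from the genotype means it was 0.73. This was the single pair of 36 with an adjusted p under 0.05 by Spearman's rho, and 0 pairs passed by Pearson's r. Slc1a3 with Prom1 had r = 0.72 (permutation p = 0.00864, adjusted 0.0622) and rho = 0.76 (permutation p = 0.00536, adjusted 0.0685). This r was 0.56 without the 2 libraries farthest from the median of Slc1a3 and 0.77 without Kmt2a+/+ replicate 1.

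Msi1 with Hopx had the highest r, 0.83 (permutation p = 0.00228, adjusted 0.0553, rho = 0.68, permutation p = 0.0186, adjusted 0.134). It fell to 0.35 without the 2 libraries farthest from the median of Msi1 and to 0.59 without Kmt2a+/+ replicate 1, so it rested on those libraries. The same held for Fabp7 with Msi2, at r = 0.77 (permutation p = 0.0068, adjusted 0.0622, rho = 0.76, permutation p = 0.00571, adjusted 0.0685), which fell to 0.39 without the 2 libraries farthest from the median of Fabp7 and to 0.45 without Kmt2a+/+ replicate 1. It held too for Msi1 with Msi2, at r = -0.79 (permutation p = 0.00713, adjusted 0.0622, rho = -0.44, permutation p = 0.153, adjusted 0.357) and -0.23 without the 2 farthest. Correlations of Nes with Fabp7, Slc1a3 and Vim were low. Its r was 0.16 with Fabp7, -0.25 with Slc1a3 and 0.030 with Vim, with permutation p-values of 0.644, 0.437 and 0.926 (adjusted 0.828, 0.647 and 0.926), and rho was 0.035, -0.18 and -0.077, with permutation p-values of 0.92, 0.568 and 0.818 (adjusted 0.957, 0.848 and 0.950). Without the 2 libraries farthest from the median of Nes, these r were 0.16, 0.0039 and 0.040. With Prom1 the r of Nes was -0.59 (permutation p = 0.0422, adjusted 0.15, rho = -0.57, permutation p = 0.0585, adjusted 0.211), and -0.48 without those 2 libraries. With Hopx it was -0.54 (permutation p = 0.0678, adjusted 0.183, rho = -0.62, permutation p = 0.0372, adjusted 0.192), and -0.55 without them. With Cd9 it was -0.54 (permutation p = 0.071, adjusted 0.183, rho = -0.48, permutation p = 0.119, adjusted 0.307), and -0.70 without them.

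**Figure D4:**
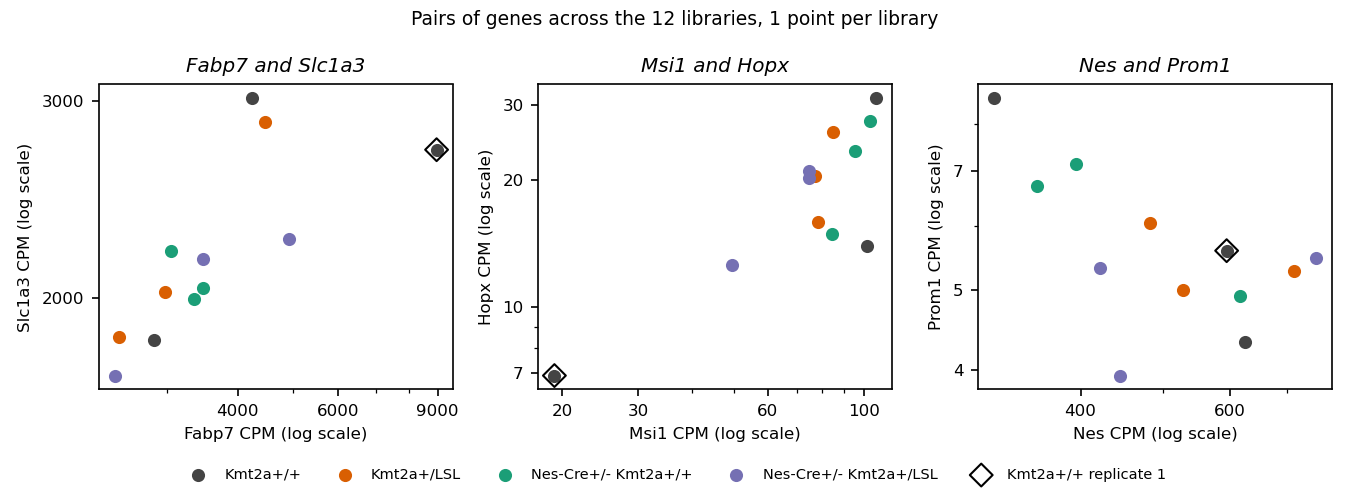
CPM of 3 pairs of genes (both axes log), with 1 point per library coloured by genotype and Kmt2a+/+ replicate 1 marked with a diamond. Fabp7 and Slc1a3 rise together over the 12 libraries pooled (r = 0.75), though not within every genotype, the Msi1 and Hopx relation leans on the diamond (r = 0.83 with it, 0.59 without), and Nes and Prom1 slope downward (r = -0.59).

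Among 11670 genes with a mean normalised count of at least 50, the profile most like that of Nes over the 12 libraries was Fkbp5, which encodes a co-chaperone of the glucocorticoid receptor, at r = 0.98 with and without Kmt2a+/+ replicate 1. Hirip3 and Anp32b, the next, had r = 0.94 and 0.94. The gene nearest to Fabp7 was the receptor phosphatase Ptprg (r = 0.95, 0.91 without that library), to Slc1a3 it was Tanc2 (0.95 and 0.95), and to Vim it was the kinase Prkce (0.92 and 0.85). Sorl1 was nearest to Prom1 (0.92 and 0.92), Fam129b to Msi1 (0.99 and 0.96), Echdc1 to Msi2 (0.97 and 0.94), the receptor tyrosine kinase Axl to Hopx (0.99 and 0.97) and Gpnmb to Cd9 (0.91 and 0.91). These are the highest of many correlations over the same 12 libraries and are given as a description.

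Around the 9 genes, 18 other neural stem and progenitor genes were all tested, and 0 passed an adjusted p of 0.05 in edgeR in any comparison. In Kmt2a+/LSL against Kmt2a+/+, 0 had an unadjusted p under 0.05 and the median log2 fold change was -0.11. The transcription factor Pax6, among the lowest p-values, was at -0.31 ± 0.15 (adjusted p = 1, edgeR). In carriers against non-carriers, 1 of 18 had an unadjusted p under 0.05, the extracellular matrix gene Tnc at -0.34 ± 0.15 (adjusted p = 1.00, edgeR), and the median was 0.018. The 9 intermediate filament genes of neural cells and the 10 family relatives of the members had 0 genes at either threshold in both comparisons, with medians of 0.036 and 0.098 in Kmt2a+/LSL against Kmt2a+/+ and of 0.044 and 0.088 in carriers. The 8 oligodendrocyte-lineage genes had a median of -0.26 in carriers, and 0 passed an adjusted p of 0.05 in edgeR. Of them, 1 was lower with an unadjusted p under 0.05, beside 1.66% of all genes at that threshold in either direction. All 7 astrocyte markers had negative fold changes in carriers, with a median of -0.18 beside 0.0022 over all genes tested, and 0 passed. The direction was less uniform within each Kmt2a background. Cre in the Kmt2a+/+ background gave 3 higher and 4 lower astrocyte markers (median -0.023). In the Kmt2a+/LSL background it gave 1 higher and 6 lower (median -0.39). The neuron, microglial, endothelial, fibroblast and ependymal lists (8, 4, 4, 7 and 4 genes tested) had 0 genes at either threshold in both comparisons.

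The list medians were also computed without Kmt2a+/+ replicate 1, an alternative chosen after seeing the data. In the 11 remaining libraries 0 genes of any list passed an adjusted p of 0.05 in edgeR in Kmt2a+/LSL against Kmt2a+/+ or in carriers against non-carriers. Of all 16987 genes tested there, 2 passed in each of these comparisons. At most 2 genes of a list had an unadjusted p under 0.05. The share of all genes at that unadjusted threshold is not reported here for these libraries, so the count is not set against a background. The median of the 9 members was -0.097 and -0.077 in these comparisons, and that of the 18 other progenitor genes was -0.020 and 0.032, with Pax6 at -0.21 in the first and Tnc at -0.28 in the second. The medians of the family relatives turned to -0.16 and -0.13, and the intermediate filament genes went to -0.077 and 0.020. In carriers, the astrocyte markers had a median of -0.36, with all 7 genes still negative, and the oligodendrocyte-lineage genes of -0.42. The median over all genes tested there was 0.00094. In Kmt2a+/LSL against Kmt2a+/+, the medians with 12 and then 11 libraries were 0.16 and -0.22 for the oligodendrocyte lineage, -0.098 and -0.28 for the astrocyte markers, and -0.30 and 0.20 for the neuron markers. Among the scarce lists they were -0.25 and 0.73 for microglia and macrophages, 0.0041 and 0.59 for endothelium, -0.17 and -0.52 for fibroblasts, pericytes and meninges, and 0.0046 and -0.24 for ependyma. In carriers against non-carriers, the medians with 12 and then 11 libraries were 0.15 and 0.24 for the neuron markers, -0.56 and -0.48 for microglia and macrophages, 0.0042 and 0.20 for endothelium, 0.42 and 0.17 for fibroblasts, pericytes and meninges, and -0.052 and -0.22 for ependyma.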

How the data were processed

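Poly(A) RNA of 12 mNPC libraries (4 genotypes, 3 each) was sequenced. The authors pseudoaligned reads with kallisto 0.48.0 to the mm10 (GRCm38) transcriptome, per the labels and methods, and deposited estimated counts per gene as whole numbers, not normalised. Pseudoalignment divides reads shared between transcripts by estimation, which affects genes with shared sequence. Samples were grouped by the labelled genotype. Here genes with more than 10 counts in all and counts in at least 2 libraries were kept (17076), TMM-normalised, and tested with edgeR 4.0.16 (glmQLFit and glmQLFTest, all 12 libraries, genotype as the only term, two-sided, Benjamini-Hochberg over all genes tested). CPM used TMM-scaled library sizes, and log2 CPM a prior count of 2. DESeq2 1.42.0 and limma 3.58.1 were run as alternatives, with other filters, a replicate block and each library left out. List medians without Kmt2a+/+ replicate 1 were added after seeing the data. The fits were tested on simulated counts. Correlations used 100000 permutations (Python 3.11.15). Of the 18911 genes, 193 had no symbol. The named genes were the 9 members, their likest genes, Kmt2a, and, of each list, the 2 genes with the smallest unadjusted p in a comparison, except that some are not reported here. Markers at 0, lineage examples and genes that moved in Kmt2a+/+ replicate 1 were named after their values were seen. The members and lists were chosen with earlier results of these data known.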

Additional observations from a re-analysis of the deposited data

Results flagged for a closer look

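In groups of 6 libraries, 2 values lay far from the rest by Dixon's criterion (critical value 0.625 for 6), out of 18 groups looked at (9 genes, carriers and non-carriers of nestin-Cre), of which chance flags about 1 in 20. Both belonged to Kmt2a+/+ replicate 1 among the non-carriers. Fabp7 was at 8960 CPM, with the next highest library at 4465 CPM, and Msi1 was at 19.2 CPM, with the next lowest at 76.9 CPM. Groups of 3 libraries were not tested in this way. No difference of LSL effects with and without nestin-Cre passed its test.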

How the results depend on the processing

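In none of the alternatives was a member called in any of the 6 comparisons, and the lowest adjusted p of a member was 0.551. Of the 54 member fold changes, 21 kept their direction under every alternative. With all libraries kept, limma-voom with sample quality weights gave 19 of the 23 reversals. Its reversed log2 fold changes for Kmt2a+/LSL against Kmt2a+/+ were 0.0946 for Vim, -0.33 for Msi1, 0.27 for Msi2, -0.18 for Hopx and -0.0716 for Cd9. Its reversed log2 fold changes for Nes-Cre+/- Kmt2a+/LSL against Kmt2a+/LSL were -0.0395 for Msi2. Its reversed log2 fold changes for Nes-Cre+/- Kmt2a+/+ against Kmt2a+/+ were 0.0299 for Nes, 0.15 for Vim, -0.0307 for Prom1, -0.0651 for Msi1 and 0.30 for Msi2. Its reversed log2 fold changes for Nes-Cre+/- Kmt2a+/LSL against Nes-Cre+/- Kmt2a+/+ were -0.0672 for Msi2. Its reversed log2 fold changes for carriers against non-carriers were 0.00908 for Vim, -0.13 for Msi1, 0.13 for Msi2 and -0.0359 for Hopx. Its reversed log2 fold changes for the difference of LSL effects were -0.13 for Nes, -0.28 for Vim and -0.34 for Msi2. With DESeq2 size factors and with the DESeq2 Wald test, Cd9 in Kmt2a+/LSL against Kmt2a+/+ was -0.00167 and -0.00181, and Prom1 in Nes-Cre+/- Kmt2a+/+ against Kmt2a+/+ was -0.0149 and -0.0148. The cause of these reversals was not tested. Leaving out 1 library at a time reversed 31 of the fold changes, 17 of them without Kmt2a+/+ replicate 1. For Kmt2a+/LSL against Kmt2a+/+ the lowest and highest values were -0.32 to 0.0286 for Vim, -0.38 to 0.40 for Msi1, -0.35 to 0.36 for Msi2, -0.11 to 0.99 for Hopx, -0.0503 to 0.13 for Cd9, -0.0856 to 0.34 for Nes and -0.38 to 0.14 for Prom1. For Nes-Cre+/- Kmt2a+/LSL against Kmt2a+/LSL the lowest and highest values were -0.41 to 0.10 for Nes, -0.26 to 0.0839 for Slc1a3, -0.16 to 0.41 for Fabp7, -0.0594 to 0.13 for Msi2 and -0.20 to 0.00355 for Vim. For Nes-Cre+/- Kmt2a+/+ against Kmt2a+/+ the lowest and highest values were -0.29 to 0.0467 for Vim, -0.18 to 0.34 for Prom1, -0.15 to 0.64 for Msi1, -0.37 to 0.34 for Msi2 and -0.0413 to 1.07 for Hopx. For Nes-Cre+/- Kmt2a+/LSL against Nes-Cre+/- Kmt2a+/+ the lowest and highest values were -0.0423 to 0.14 for Msi2, -0.10 to 0.0889 for Slc1a3, -0.0704 to 0.53 for Nes and -0.16 to 0.35 for Fabp7. For carriers against non-carriers the lowest and highest values were -0.44 to 0.00199 for Fabp7, -0.22 to 0.19 for Msi1, -0.17 to 0.18 for Msi2, -0.13 to 0.43 for Hopx and -0.17 to 0.0941 for Prom1. For the difference of LSL effects the lowest and highest values were -0.24 to 0.36 for Nes, -0.14 to 0.21 for Vim, -0.32 to 0.39 for Msi2, -0.00914 to 0.37 for Slc1a3 and -0.49 to 0.0327 for Prom1. 

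Same-numbered libraries of different genotypes were not paired in the main fit, and the labels do not say whether they share an animal, litter or day. Of such pairs, 5 of 18 had a correlation of deviations over 0.1 (mean 0.084), beside 4 of 36 pairs with different numbers (mean -0.041). Of the 12 libraries, 6 correlated best with their own number. These values were higher for same-numbered pairs and do not settle whether the libraries were paired. With the number as a replicate block, 0 members and 0 genes in all were called in each comparison. Without Kmt2a+/+ replicate 1 or with a prior count of 0.5, 0 pairs of members passed by Pearson's r. The precision was limited, with 3 libraries per genotype and a biological coefficient of variation of 0.368, and Prom1 had the lowest counts, 94 to 216. Without Kmt2a+/+ replicate 1, the SE in Kmt2a+/LSL against Kmt2a+/+ changed in both directions. It fell for Msi1 (0.46 to 0.16), Msi2 (0.28 to 0.17), Hopx (0.46 to 0.36), Fabp7 (0.40 to 0.30), Vim (0.20 to 0.18) and Cd9 (0.17 to 0.15). It rose for Nes (0.33 to 0.35), Slc1a3 (0.230 to 0.234) and Prom1 (0.291 to 0.295).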
